A study of Mus musculus with 40 samples.

Results

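Mitochondrial fatty acid oxidation and the formation of ketone bodies were followed in mouse liver through 35 genes. These genes were chosen by symbol for their place in this pathway, with earlier results of these data known. Of the 35 genes, 34 reached at least 1 CPM (the read count scaled to the depth of its library) in at least 5 of the 40 mice and were among the 12942 genes tested, whereas Acss1, a mitochondrial acetyl-CoA synthetase, stayed below this level. Liver RNA had been sequenced from male mice at 5 months of age, all labelled as strain C57BL6/J, although the methods name that strain only for the wildtype mice. The 4 groups of wildtype (WT) mice and the same groups of liver-specific PPARγ knockout (KO) mice, each of 5 mice, were fed control diet or high-fat diet (HFD) from young adulthood, each either plain or with pioglitazone (Pio and HFD-Pio groups). Control diet was low in fat, and pioglitazone is a thiazolidinedione that activates the nuclear receptor PPARγ. KO mice carried a Cre transgene under the albumin promoter together with loxP-flanked PPARγ alleles, so deletion was directed to hepatocytes and the other cells of the liver keep the gene. WT mice came from the supplier's C57BL6/J colony and carried neither Cre nor the loxP alleles, a difference that goes with the deletion in every comparison between genotypes. The 2 genotypes were counted in separate tables, so a level in KO mice was not tested against a level in WT mice, and only the effects of Pio and of HFD were compared between them.

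Fatty acids are activated to acyl-CoA by synthetases (the Acsl genes) and carried into mitochondria by the carnitine shuttle, in which Cpt1a controls the rate in liver and is inhibited by malonyl-CoA. Within the matrix each turn of the spiral consists of a dehydrogenation by an acyl-CoA dehydrogenase, a hydration, a further dehydrogenation and a thiolytic cleavage, with electrons passed through the electron transfer flavoprotein and its dehydrogenase to the respiratory chain. In the fasting or fat-fed liver much of the acetyl-CoA is turned into acetoacetate and β-hydroxybutyrate. PPARα is the best known nuclear receptor that drives these genes in hepatocytes, and PPARγ, which is abundant in adipocytes and normally low in liver, recognises similar DNA sites as a dimer with RXR.

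The libraries held 15789401 to 49860981 counts in WT mice and 21542958 to 28334251 in KO mice. The library of KO Pio mouse 13 stood apart from the rest. In it, 82.3% of the tested genes lay outside the range of the other 19 KO mice, as did 29 of the 34 genes of the pathway, 19 of them below it. Its summed level of 8 hepatocyte markers was 34529 CPM, against 98589 to 133563 CPM in the other KO Pio mice. Another 4 libraries had over 20% of the genes outside the range of their genotype (WT HFD mouse 829, 35.5%, WT control mouse 832, 32.9%, WT Pio mouse 845, 25.4%, and KO HFD mouse 9, 24.2%). In WT control mouse 832, 14 members were the lowest of all WT mice, and its sum of 6 stellate cell markers was 563 CPM against 193 to 228 CPM in its group. In KO HFD mouse 9, 12 members were the lowest of all KO mice, its hepatocyte markers summed to 74911 CPM against 96864 to 101962 CPM, and its 8 macrophage markers to 859 CPM against 381 to 469 CPM. Results are therefore given over all 40 mice and again without mouse 13, whose removal reaches the WT comparisons only through the scaling and the estimate of spread that all groups share. All 8 hepatocyte markers passed the filter and 0 of 8 muscle markers did. The muscle markers summed to as much as 16.6 CPM in a KO HFD mouse, against at most 1.15 CPM in the other groups. The 5 pancreatic acinar markers, of which 1 passed, summed to as much as 406 CPM in a KO HFD mouse, against at most 25.0 CPM in the other groups. The 8 adipocyte markers, of which 4 passed the filter and Lep and Ucp1 were at 0 in WT control mice, summed to 10.3 to 16.3 CPM in WT control, 77.7 to 509 CPM in WT Pio, 7.44 to 75.5 CPM in WT HFD and 94.3 to 516 CPM in WT HFD-Pio mice, and to at most 37.0 CPM in any KO mouse, and their part in the effects of Pio on this pathway was not tested. Of the adipocyte markers, the study reported Cfd and Fabp4 as raised by Pio on control diet in WT but not in KO liver. The sum cannot tell adipocytes from such a response, and which markers carried it is not given here. In whole liver, fewer cells of a type and less RNA per cell cannot be told apart. Pparg itself measured 5.79 to 14.2 CPM in WT and 3.01 to 9.90 CPM in KO mice, a total over all exons that does not measure the deletion of the flanked ones.

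Per kilobase of annotated exon, the members spanned a wide range of levels in WT control mice (mean ± SD, n = 5). Acaa2, a thiolase of the spiral, was highest at 407 ± 115 CPM per kb. Etfb, a subunit of the electron transfer flavoprotein, followed at 160.3 ± 38.5 CPM per kb. Neither overlapped the next gene in the order. From Acadl (73.2 ± 13.8 CPM per kb) through Bdh1, Acsl5, Acsl1, Acat1, Pccb, Acads, Cpt2, Etfa, Hadh, Hadha, Cpt1a, Acadm, Acadvl, Eci1, Slc25a42, Mlycd and Decr1 to Etfdh (19.7 ± 2.79 CPM per kb), each gene overlapped its neighbour between mice. Echs1, Slc25a20, Pcca, Acadsb, Acsl4, Acad8, Acsl3, Slc22a5, Acad9 and Acad10 formed a lower run from 13.1 ± 1.91 to 2.53 ± 0.196 CPM per kb. Hadhb measured 1.31 ± 0.308 CPM per kb, far under the 47.9 ± 9.93 CPM per kb of Hadha, with which it forms the trifunctional protein. Acad12 (0.429 ± 0.128 CPM per kb), the muscle isoform Cpt1b (0.222 ± 0.0834 CPM per kb) and Acss1 (0.134 ± 0.0956 CPM per kb) were lowest. Of the 34 neighbouring pairs in this order, 5 did not overlap. The lengths sum all annotated exons of a gene, and the authors counted only reads that were unambiguous, so genes that share sequence can be counted low. In GENCODE M21, 78.6% of the 50-base words of Cpt1b also occur in the overlapping gene Gm44502, 43.8% of those of Etfb in Gm45233, 26.9% of those of Acadvl in Dvl2 on the opposite strand, 26.1% of those of Slc22a5 in its neighbour Slc22a21 and 18.1% of those of Hadhb in Gm13910.

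The plot of the members in each mouse shows how they varied among themselves. Relative to the control mice of the same genotype, the median member lay above 0 in all 5 WT Pio, all 5 WT HFD and all 5 WT HFD-Pio mice, with medians of 0.13 to 0.59, 0.12 to 0.41 and 0.45 to 0.65 on the log2 scale. The 5 WT control mice spanned -0.29 (mouse 832) to 0.18. In all 5 KO Pio mice the median member lay below 0, at -0.11 to -0.51 in 4 mice and -1.0 in mouse 13. The KO HFD mice spanned -0.04 to 0.04 except for mouse 9 at -0.65, and the KO HFD-Pio mice -0.24 to 0.07. Among the genes, Acsl3, Acsl4 and Acsl5 had the lowest differences between WT HFD and WT control mice (-0.76, -1.09 and -0.75), where 26 of 34 members were above 0.

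**Figure D1:**
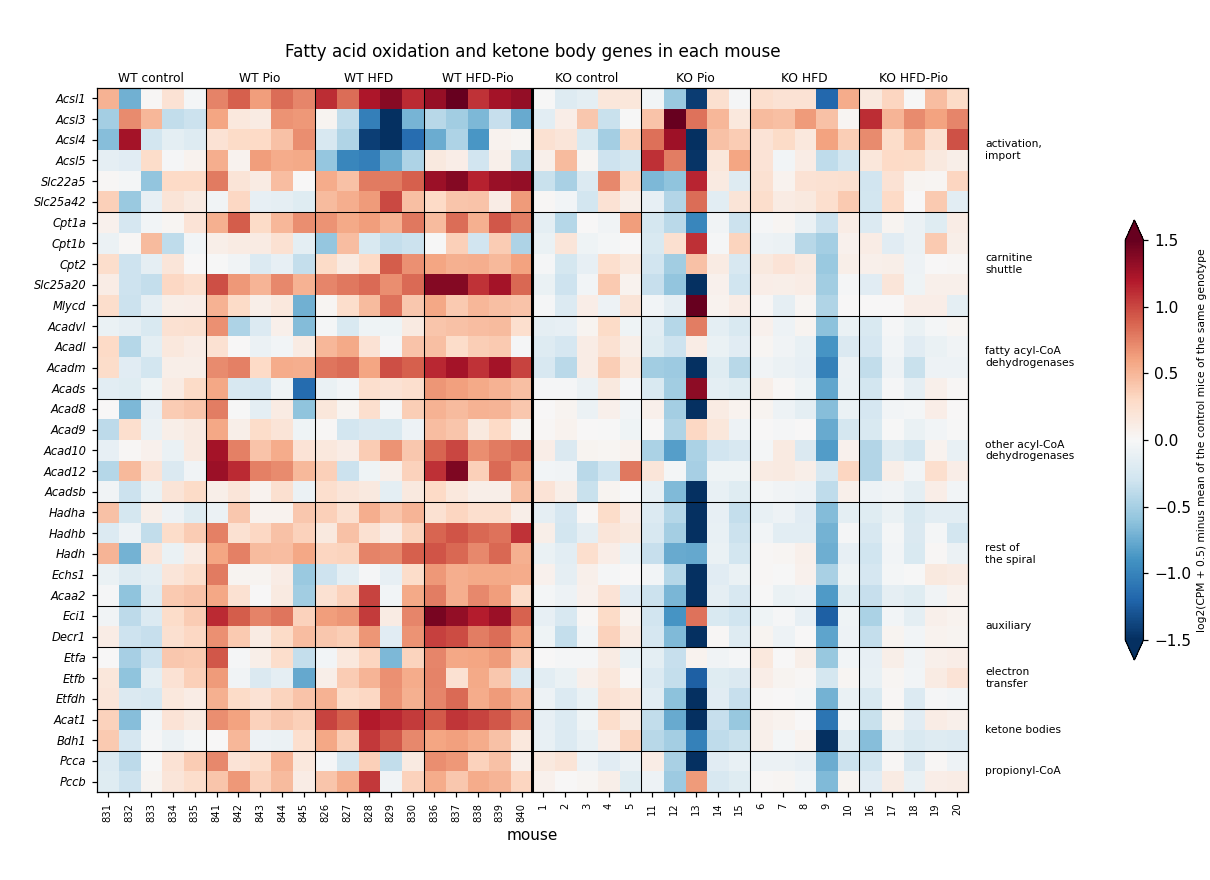
Level of the 34 genes in each of the 40 mice, as log2(CPM + 0.5) minus the mean of the 5 control mice of the same genotype (colour), with genes in rows by step and mice in columns by group. WT HFD-Pio mice are red in most rows, KO Pio mouse 13 and KO HFD mouse 9 stand out from their groups, and the colour scale ends at 1.5 in both directions.

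The first question was how Pio acted on the pathway in WT mice on control diet. Cpt1a, Acad10, Acad12 and Eci1 rose, 4 of 34 members (11.8%), where 2.44% of all tested genes rose and 3.91% changed in either direction by edgeR's quasi-likelihood test with adjusted p not above 0.05. The remaining 30 members did not pass the test, but 29 of the 34 had a difference above 0 (47.5% of all genes) and 10 an unadjusted p under 0.05 (17.9%), with a median of 0.27 on the log2 scale against -0.02 over all genes. In 7 members all WT Pio mice were above all WT control mice (4.50% of all genes), and in 0 members were they all below (3.03%).

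Cpt1a (ENSMUSG00000024900; GRCm38 chromosome 19, 3322334 to 3385733, forward strand), the gatekeeper of mitochondrial import, measured 367, 294, 340.1, 356 and 403 CPM in WT control mice (mice 831 to 835) and 509, 659, 428, 497 and 567 CPM in WT Pio mice (mice 841 to 845). The groups did not overlap. Their means were 352 ± 39.9 CPM and 532 ± 86.5 CPM (SD, n = 5), a log2 difference of 0.60 (SE 0.16, 1.51-fold, adjusted p = 0.0274; two-sided exact permutation p = 0.00794, the smallest that 5 against 5 mice allow). Eci1 (ENSMUSG00000024132; chromosome 17, 24426641 to 24439348, forward strand) is an auxiliary isomerase of the spiral for fatty acids with double bonds. It measured 63.6, 50.2, 57.2, 79.9 and 86.5 CPM in control and 144, 125, 111, 115 and 84.3 CPM in Pio mice. Of the Pio mice, 4 were above every control mouse, and mouse 845 was not. The log2 difference was 0.78 (SE 0.23, 1.72-fold, adjusted p = 0.0422; exact permutation p = 0.0159). The call of Cpt1a was lost without WT control mouse 832 or 833 or WT Pio mouse 842 or 845 (adjusted p of at most 0.0916), and that of Eci1 without any 1 of 8 of the 10 mice compared (all but mice 835 and 845, adjusted p of at most 0.101).

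Acad10 (ENSMUSG00000029456; chromosome 5, 121621026 to 121660514, reverse strand) and Acad12 (ENSMUSG00000042647; chromosome 5, 121596775 to 121618938, reverse strand) are neighbouring members of the acyl-CoA dehydrogenase family. Acad10 measured 14.0, 15.5, 16.1, 14.3 and 16.9 CPM in control and 37.1, 26.2, 20.7, 22.7 and 17.7 CPM in Pio mice, without overlap (log2 difference 0.70, SE 0.16, 1.63-fold, adjusted p = 0.0109; exact permutation p = 0.00794). Acad12 measured 1.89, 4.02, 3.20, 2.27 and 2.60 CPM in control and 7.30, 6.51, 4.94, 4.77 and 3.99 CPM in Pio mice, of which 4 were above all control mice (log2 difference 0.98, SE 0.24, 1.98-fold, adjusted p = 0.015; exact permutation p = 0.0159). Both genes were lowest, among Pio mice, in mouse 845, and leaving out WT control mouse 831 ended the call of Acad12 (adjusted p = 0.0516) while no mouse ended that of Acad10. Of the 50-base words of Acad10, 16.8% also occur in Acad12, and reads within them are not unambiguous. The longest run that a protein-coding transcript of each shares is 195 bases of coding sequence, exons 13 to 15 of Acad10 (chr5:121630220-121631314, GRCm38, reverse strand) and exons 3 to 5 of Acad12 (chr5:121607482-121609803, reverse strand), printed here to show where a read cannot be assigned to either gene.
Acad10 and Acad12, shared coding run: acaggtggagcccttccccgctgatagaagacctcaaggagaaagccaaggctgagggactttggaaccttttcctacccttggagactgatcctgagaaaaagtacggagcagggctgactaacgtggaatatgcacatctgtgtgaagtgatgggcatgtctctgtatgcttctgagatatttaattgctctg

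Without mouse 13, 12 members rose, where 8.43% of all genes rose and 15.5% changed. They were the 4 above and Acsl1 (0.73), Acsl5 (0.49), the carnitine-acylcarnitine carrier Slc25a20 (0.67), the medium-chain dehydrogenase Acadm (0.58), Hadhb (0.42), Hadh (0.54), Etfdh (0.36) and Acat1 (0.47, log2 differences, adjusted p 0.00138 to 0.0374). The median over the members was 0.28, close to its value with mouse 13. Conversely, without WT control mouse 832 only 2 members, Acad10 and Acad12, passed (3.18% of all genes changed), with a median of 0.31.

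In WT mice on HFD, Acad12 alone passed (1 of 34, 2.94%, where 0.603% of all genes rose and 1.08% changed). It measured 3.62, 2.08, 2.58, 2.89 and 3.60 CPM in WT HFD mice (mice 826 to 830) and 6.39, 7.98, 3.62, 5.28 and 4.51 CPM in WT HFD-Pio mice (mice 836 to 840). The lowest HFD-Pio mouse and the highest HFD mouse were close but did not overlap, and the log2 difference was 0.92 (SE 0.24, 1.89-fold, adjusted p = 0.0494; exact permutation p = 0.00794). This call was lost in 27 of the 40 fits that left out 1 mouse, also when the mouse was in neither group, and 0 members passed without WT HFD mouse 829 (0.471% of all genes). Over the members the median difference was 0.32 against -0.02 over all genes, 27 of 34 were above 0, and in 13 of 34 all HFD-Pio mice were above all HFD mice (3.22% of all genes), against 0 where all were below (3.89%). Without mouse 13, 12 members rose (5.17% of all genes rose): Acad12 (0.94), Hadhb (0.71), Acsl5 (0.70), the hydratase Echs1 (0.64), the carnitine transporter Slc22a5 (0.62), Eci1 (0.58), Etfa (0.54), Acad10 (0.51), Pcca, a subunit of propionyl-CoA carboxylase (0.49), the very-long-chain dehydrogenase Acadvl (0.47), Acad9 (0.46) and Slc25a20 (0.43), with adjusted p of 0.00156 to 0.0455.

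The effect of Pio in WT mice was not shown to differ between the diets for any member. The difference between the 2 effects passed in 0 of 34 members over all mice (0.0773% of all genes) and in 0 without mouse 13 (5.16% of all genes). By the unadjusted p of the quasi-likelihood test, 1 member was under 0.05 (12.1% of all genes), DESeq2 called 0, and limma with sample weights, the method of the study, called 3 (Acadvl, Echs1 and Acads, all higher on HFD; 8.82% of members, against 10.6% of all genes). For Cpt1a the log2 effect was 0.60 on control diet and 0.08 on HFD (difference -0.51, SE 0.23, adjusted p = 0.349). The WT HFD mice already held 558, 518, 539.5, 502 and 605 CPM and the HFD-Pio mice 487, 627, 505, 668 and 598 CPM. For Acat1 the effects were 0.45 and -0.12 (difference -0.57, SE 0.31, adjusted p = 0.459), and for Acads, the short-chain dehydrogenase, -0.14 and 0.44 (difference 0.58, SE 0.34, adjusted p = 0.51).

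**Figure D2:**
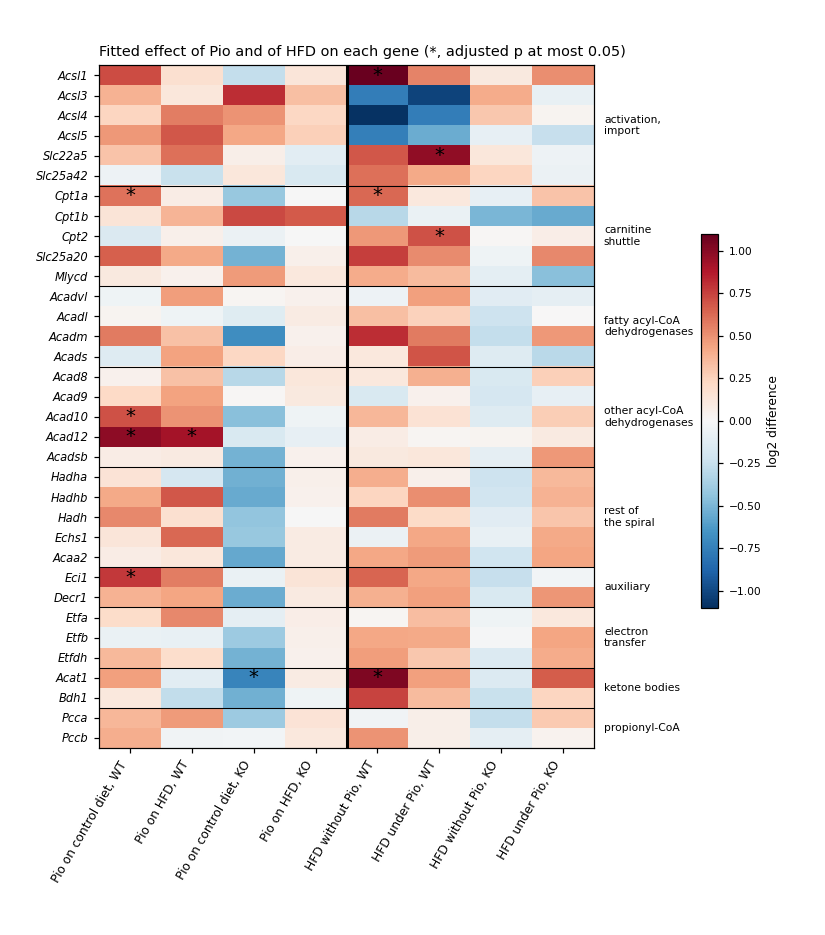
Fitted log2 difference (colour) of each of the 34 genes in the 4 comparisons of Pio and the 4 of HFD, with an asterisk where edgeR's adjusted p was at most 0.05. The asterisks number 4, 1, 1, 0, 3, 2, 0 and 0 from left to right. In the columns of WT mice, 29, 27, 26 and 30 rows are above 0 (red), from left to right. Acsl3, Acsl4 and Acsl5 are among the rows below 0 in the 2 HFD columns of WT mice.

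In KO mice on control diet, 1 of 34 members changed with Pio (2.94%, where 1.26% of all genes fell and 7.75% rose, 9.01% in all). Acat1 (ENSMUSG00000032047; chromosome 9, 53580522 to 53610382, reverse strand), the mitochondrial thiolase that makes and breaks acetoacetyl-CoA, measured 349, 327, 361, 455 and 415 CPM in KO control mice (mice 1 to 5) and 293, 224, 84.0, 299 and 256 CPM in KO Pio mice (mice 11 to 15). Every Pio mouse was below every control mouse, with mouse 13 lowest (log2 difference -0.72, SE 0.22, adjusted p = 0.0353; exact permutation p = 0.00794). Without mouse 13 the difference was -0.49 and no longer passed (adjusted p = 0.191), and the call was also lost without any 1 of the 5 KO control mice and in a fit of KO mice alone, in which 0 genes passed. Without mouse 13, Acsl5 rose (0.69, adjusted p = 0.0446), where 0.355% of all genes rose and 0.51% changed. Acsl5 had measured 307, 405, 298, 235 and 244 CPM in KO control and 625, 497, 105, 328 and 441 CPM in KO Pio mice, in which mouse 13 was lowest. The count of members moved with single libraries, to 10 (1 higher and 9 lower) without KO Pio mouse 14, where 17.9% of all genes changed, and to 5 without KO Pio mouse 15 (16%) or KO HFD mouse 9 (9.85%).

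Across the members the differences in KO mice lay mostly below 0, with a median of -0.28 against 0.03 over all genes and 10 of 34 above 0 (52.7% of all genes), and 14 had an unadjusted p under 0.05 (27.6%). Without mouse 13 the medians were -0.23 and 0.01, with 29 of 34 below 0 against 24 with it. All 5 genes of the later steps of the spiral (Hadha, Hadhb, Hadh, Echs1 and Acaa2), both auxiliary enzymes (Eci1 and Decr1), all 3 electron transfer genes and both genes of ketone body metabolism had values below 0, and those of the later steps ranged from -0.56 to -0.41. In 4 members every KO Pio mouse was below every KO control mouse (2.09% of all genes) and in 0 above (1.61%). Of these members Acat1 alone passed the adjusted test. Acsl3 (0.82), Cpt1b (0.72), Acsl4 (0.50) and Mlycd (0.47), the decarboxylase that removes malonyl-CoA, had the highest values, none of which passed, and Mlycd without mouse 13 was at 0.01.

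In KO mice on HFD, 0 of 34 members changed with Pio by edgeR (0.0155% of all genes), 0 had an unadjusted p under 0.05 (1.04%), in 0 were the groups without overlap (0.294% of all genes higher), and DESeq2 and limma called 0. The median was 0.07 against 0.00, and the differences ranged from -0.17 (Slc25a42, the mitochondrial carrier of CoA) to 0.68 (Cpt1b). The sign of this median rested on KO HFD mouse 9. Without it the median was -0.04, with 10 of 34 above 0 in place of 26. Acat1 illustrates the group, at 398, 394, 381, 177 and 369 CPM in KO HFD mice (mice 6 to 10) and 301, 391, 336, 408 and 399 CPM in KO HFD-Pio mice (mice 16 to 20). In KO mice no member passed a test of whether Pio acted differently on control diet and HFD (0 of 34 and 0% of all genes, with and without mouse 13), and 3 members had an unadjusted p under 0.05 over all mice (12.1% of all genes), and DESeq2 and limma called 0.

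Whether the effect of Pio depended on the genotype was tested directly, as the Pio effect in KO minus that in WT mice. On control diet this difference passed the adjusted test in 9 of 34 members (26.5%), all of them below 0. Over all genes, 2.49% were lower and 7.87% differed in either direction by that test. Regardless of the test, 26 members lay below 0 and 8 above (54.2% of all genes above). The 9 genes came from 6 steps of the pathway: Cpt1a and Slc25a20 of the carnitine shuttle, the dehydrogenase Acadm, Acad10 and Acad12, Hadhb and Hadh of the later spiral, Etfdh of electron transfer, and Acat1. For each of the 9 the difference in WT mice was above 0 and that in KO mice below 0, and 15 members had an unadjusted p under 0.05 (27.2% of all genes). The median difference over the 34 members was -0.58 against 0.06 over all genes. Its size was smaller in other fits, at -0.42 against 0.02 without mouse 13, -0.41 without the 5 libraries that stood apart and -0.30 with limma. Without mouse 13 the test again called 9 members (3.13% of all genes lower, 5.7% in either direction), of which 8 were the same. Eci1 joined (-1.18, adjusted p = 0.00765, against -0.85 and 0.0835 with it), and Acad12 did not pass (-1.04, adjusted p = 0.0571).

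For Cpt1a, whose WT values are given above, KO control mice measured 521, 430.3, 580.0, 559 and 891 CPM and KO Pio mice 482, 438, 293, 558 and 464 CPM. KO values overlapped, and the effects were 0.60 in WT and -0.42 in KO mice (difference -1.01, SE 0.23, adjusted p = 0.00765, and -0.89, adjusted p = 0.00829, without mouse 13). Slc25a20 (ENSMUSG00000032602; chromosome 9, 108662088 to 108684641, forward strand), which exchanges acylcarnitine for carnitine across the inner membrane, measured 61.4, 45.7, 44.3, 70.3 and 67.7 CPM in WT control and 111, 89.3, 81.3, 94.0 and 82.0 CPM in WT Pio mice, without overlap. In KO mice it measured 85.2, 73.2, 88.3, 119.6 and 94.7 CPM without and 71.4, 60.3, 21.0, 94.9 and 74.1 CPM with Pio. Mouse 13 was far below the rest, and the difference between the effects was -1.18 (SE 0.30, adjusted p = 0.0161) with it and -0.95 (adjusted p = 0.00469) without it.

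Acadm (ENSMUSG00000062908; chromosome 3, 153922357 to 153944632, reverse strand), the medium-chain dehydrogenase, measured 174, 127, 118, 153 and 152 CPM in WT control and 234, 242, 176, 212 and 209 CPM in WT Pio mice. In KO mice it measured 227, 203, 290.0, 346 and 299 CPM without and 187, 184, 42.6, 236 and 200.2 CPM with Pio. The WT groups did not overlap, and in KO mice 4 of the 5 Pio mice were below every control mouse. The effects of 0.57 and -0.68 differed by -1.25 (SE 0.33, adjusted p = 0.0201), and by -0.997 (adjusted p = 0.00412) without mouse 13. For Acad10, KO control mice measured 26.15, 20.90, 25.05, 25.01 and 25.40 CPM and KO Pio mice 17.4, 13.6, 17.4, 19.9 and 20.6 CPM, all 5 below the controls. Mouse 13 lay within the range of the other KO Pio mice, and the difference between the effects was -1.16 (SE 0.23, adjusted p = 0.00334) with it and -1.15 without it. For Acad12, KO mice measured 4.17, 4.11, 3.12, 3.40 and 7.77 CPM without and 4.95, 4.20, 2.90, 4.06 and 4.07 CPM with Pio, and KO control mouse 5 was above all of them (difference -1.15, SE 0.34, adjusted p = 0.0321), and the call was lost without KO control mouse 5 or any of 5 other mice (WT control 831 and 834, WT Pio 841 and 842, and KO Pio 13).

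Hadh (ENSMUSG00000027984; chromosome 3, 131233419 to 131272101, reverse strand), the hydroxyacyl-CoA dehydrogenase for shorter chains, measured 352, 150.3, 279.7, 229 and 268 CPM in WT control and 371, 417, 344, 339 and 369 CPM in WT Pio mice. In KO mice it measured 280.5, 269, 360.3, 322 and 285 CPM without and 237, 178, 178, 280.5 and 250.0 CPM with Pio. Both pairs of groups overlapped, since WT control mouse 831 and KO Pio mouse 14 lay among the other group, and the effects differed by -0.96 (SE 0.24, adjusted p = 0.0161; -0.88 without mouse 13). Hadhb (ENSMUSG00000059447; chromosome 5, 30155248 to 30184593, forward strand), a subunit of the trifunctional protein, measured 7.29, 8.01, 6.47, 10.3 and 11.2 CPM in WT control and 14.7, 10.0, 10.7, 11.7 and 10.9 CPM in WT Pio mice. In KO mice it measured 20.4, 15.6, 17.2, 21.7 and 21.1 CPM without and 16.0, 13.2, 3.46, 17.7 and 15.2 CPM with Pio. Its difference of -0.97 (SE 0.31, adjusted p = 0.0497) was the one nearest to the threshold and was lost in 31 of the 40 fits that left out 1 mouse, and it was -0.71 (adjusted p = 0.0239) without mouse 13. Hadha, the partner subunit, differed by -0.69 (SE 0.31, adjusted p = 0.142) and did not pass.

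Etfdh (ENSMUSG00000027809; chromosome 3, 79603788 to 79629500, reverse strand), which passes electrons from the flavoprotein to ubiquinone, measured 166, 126, 124, 164 and 159 CPM in WT control and 212, 179, 169.7, 185 and 198 CPM in WT Pio mice. In KO mice it measured 255, 233, 250.4, 312 and 301 CPM without and 240.2, 174, 81.1, 239 and 210.4 CPM with Pio. The WT groups did not overlap, the KO groups did, and the effects differed by -0.87 (SE 0.25, adjusted p = 0.0299; -0.67 without mouse 13), a call that was lost without WT control mouse 833, WT Pio mouse 845 or KO control mouse 4. Acat1 measured 299, 152, 229, 272 and 258 CPM in WT control and 383, 359, 299, 312 and 303 CPM in WT Pio mice, where the lowest Pio mouse equalled the highest control mouse to the digits printed. With the KO values given above, its effects of 0.45 and -0.72 differed by -1.18 (SE 0.31, adjusted p = 0.019; -0.96 without mouse 13). Acsl1 had a difference of similar size (-0.98, SE 0.33) that did not pass (adjusted p = 0.0571).

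**Figure D3:**
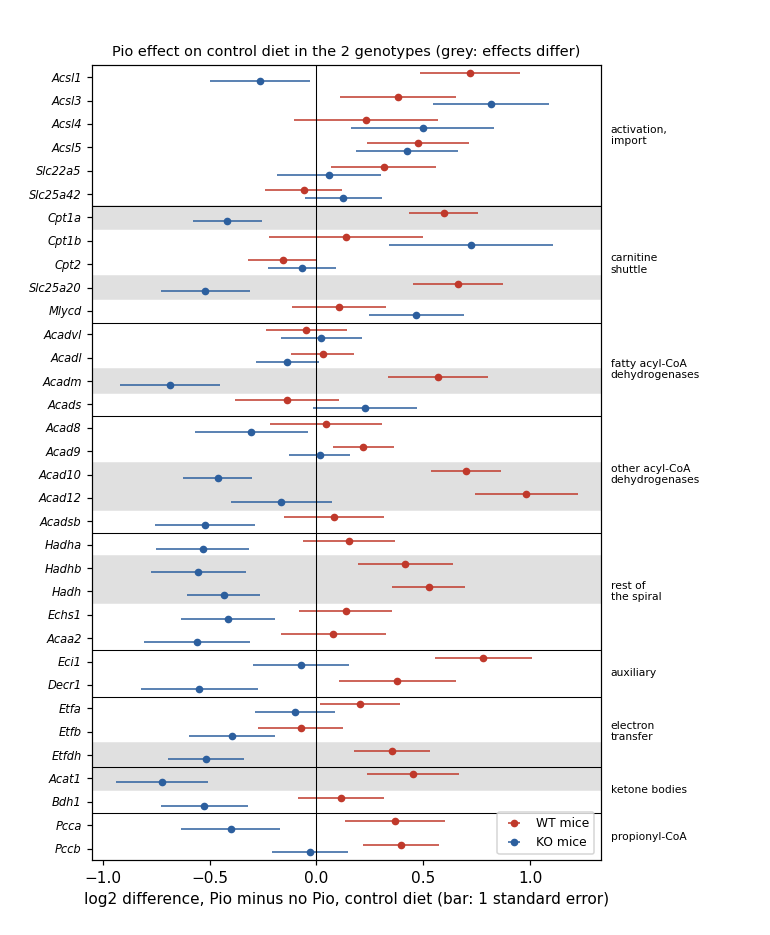
Fitted log2 difference between mice with and without Pio on control diet for each of the 34 genes, WT mice in red and KO mice in blue, with bars of 1 standard error and grey bands on the 9 genes whose effects differed between genotypes. Red points lie above 0 for 29 genes and blue points below 0 for 24.

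**Figure D4:**
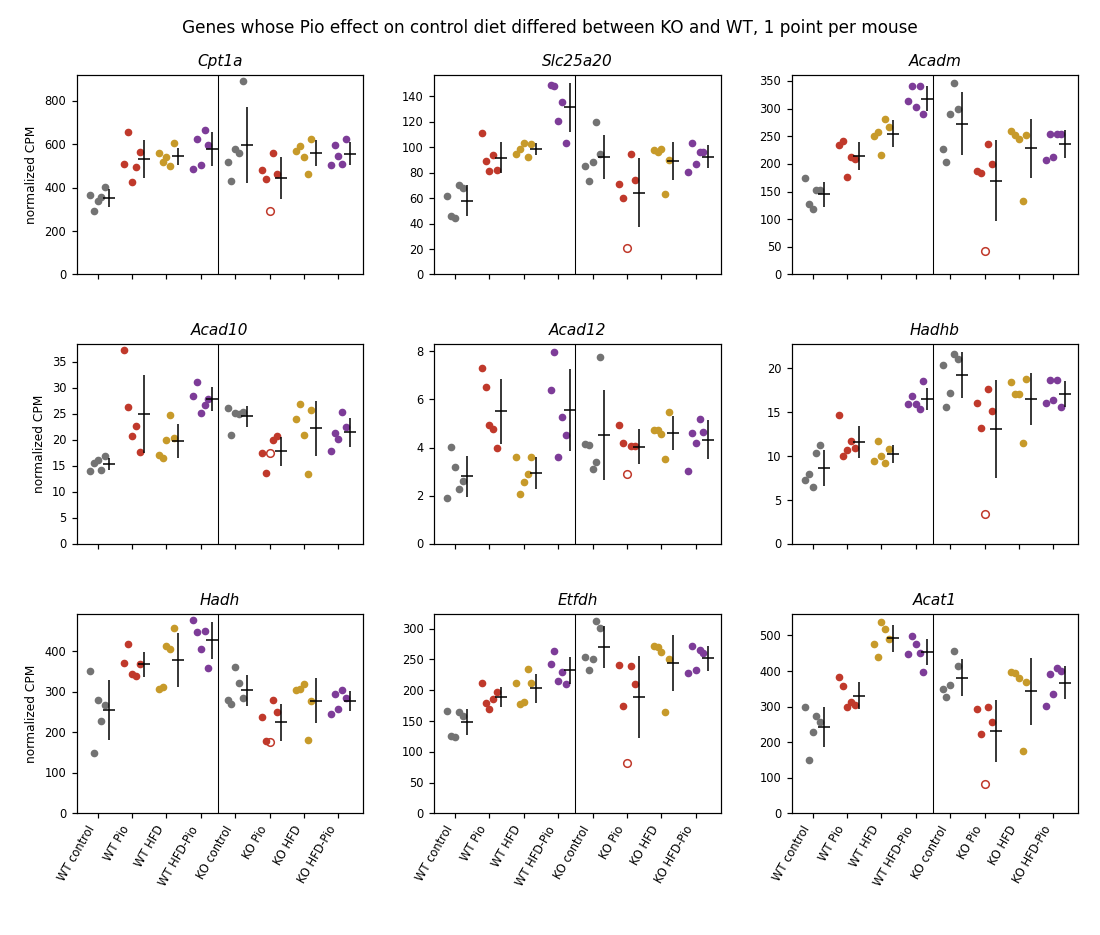
Normalized CPM of the 9 genes in every mouse, by group, with the mean and SD (n = 5) beside the points and KO Pio mouse 13 drawn as an open circle. The mean of WT Pio mice lies above that of WT control mice in all 9 panels, and the mean of KO Pio mice below that of KO control mice, with the open circle the lowest KO Pio point in most panels.

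Left out in turn, no mouse ended the calls of Cpt1a, Slc25a20, Acadm, Acad10, Hadh or Acat1, which also passed with DESeq2, with limma, with another scaling, without the filter and without the 5 libraries that stood apart. With those 5 libraries left out, 12 members differed, the 9 above and Acsl1, Eci1 and Pccb, where 7.74% of all genes did. On HFD the Pio effect in KO minus WT mice passed in 0 of 34 members (0.0927% of all genes), with 4 at an unadjusted p under 0.05 (5.93%), 4 called by limma (2.74% of all genes) and 0 by DESeq2 (0.201%), and 0 without mouse 13 (0.162%). The lowest value was that of Acad12 (-1.01, SE 0.34, adjusted p = 0.574), and the median over the members was -0.18 against 0.01 over all genes. Whether the genotype difference itself depends on the diet was not tested.

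PPARγ and its partner RXR bind a direct repeat of the core AGGTCA with 1 base between the copies. RefSeq promoters (GRCm38.p6) running from 250 bases before to 50 bases after the start site were at hand for 30 of the 35 members. The full repeat occurred in 0 of the 30 on either strand, and in 0.0406% of the 9841 tested genes with a promoter, and a form with 1 free base in each copy also in 0 of the 30 (0.345% of tested genes). The single core, on either strand, occurred in 5 of the 30 (Cpt1a, Acadvl, Acadm, Echs1 and Pcca), and in 15.6% of tested genes. Of the 13 members called in any comparison, Cpt1a and Acadm held it. Their 250 bases before the start site are shown 5′ to 3′ on the strand of the gene, with the letters that match the core (read on the opposite strand) in capitals, 94 to 89 bases before the start of Cpt1a (chr19:3323051-3323300, forward strand) and 249 to 244 bases before that of Acadm (chr3:153944644-153944893, reverse strand). The absence of a match says only that these letters are not in this window.
Cpt1a: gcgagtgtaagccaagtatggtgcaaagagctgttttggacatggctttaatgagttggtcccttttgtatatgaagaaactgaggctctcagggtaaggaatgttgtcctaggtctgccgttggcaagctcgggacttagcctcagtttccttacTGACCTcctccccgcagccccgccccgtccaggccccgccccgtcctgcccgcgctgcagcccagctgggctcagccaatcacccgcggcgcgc
Acadm: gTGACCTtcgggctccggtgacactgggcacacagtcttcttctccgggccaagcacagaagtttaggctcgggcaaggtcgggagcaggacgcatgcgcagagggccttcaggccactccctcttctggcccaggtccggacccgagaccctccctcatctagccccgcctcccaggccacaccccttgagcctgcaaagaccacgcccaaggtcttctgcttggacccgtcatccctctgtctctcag

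HFD alone raised 3 of 34 members in WT mice, Acsl1, Cpt1a and Acat1 (8.82%, where 0.595% of all genes rose and 1.31% changed). In all, 19 members had an unadjusted p under 0.05 (13.2% of all genes), the median difference was 0.40 against 0.00 over all genes, and 26 of 34 were above 0 (50.3% of all genes). In 8 members all HFD mice were above all control mice (1.65% of all genes), and in 1, Acsl5, all were below (1.41%). Acsl1 (ENSMUSG00000018796; chromosome 8, 46471037 to 46536051, forward strand), the main long-chain acyl-CoA synthetase of liver, measured 954, 402, 671, 773 and 652 CPM in WT control mice and 1437, 1190.2, 1537, 1713 and 1444 CPM in WT HFD mice. The groups did not overlap, and the level was 2.12-fold (log2 difference 1.08, SE 0.24, adjusted p = 0.0134; exact permutation p = 0.00794). Acat1 rose from 242 ± 56.5 CPM to 493 ± 37.6 CPM (SD, n = 5), with HFD mice at 477, 441, 538, 518 and 489.7 CPM, all above the control mice (log2 difference 1.03, SE 0.22, adjusted p = 0.0104; exact permutation p = 0.00794). Cpt1a rose from 352 ± 39.9 CPM to 545 ± 40.2 CPM, again without overlap (log2 difference 0.63, SE 0.16, adjusted p = 0.0354; exact permutation p = 0.00794). The call of Cpt1a was lost without any of 7 mice (WT control 832, 833 and 834 and WT HFD 826, 828, 829 and 830), while no mouse ended those of Acsl1 and Acat1. The WT control mice are also the reference for the Pio effect on control diet, so the 2 effects on Cpt1a share those 5 mice.

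Without mouse 13, 14 members rose and 2 fell under HFD (3.23% and 3.33% of all genes). Besides the 3 above, Acadm (0.80), Slc25a20 (0.75), the β-hydroxybutyrate dehydrogenase Bdh1 (0.73), Slc22a5 (0.66), Eci1 (0.63), Slc25a42 (0.59), Hadh (0.56), Pccb (0.48), Cpt2 (0.47), Etfdh (0.45) and Hadha (0.38) rose. The 2 that fell were other long-chain synthetases, Acsl5 (-0.76, adjusted p = 0.00387) and Acsl4 (-1.11, adjusted p = 0.0187). Acsl5 measured 311, 302, 413, 336 and 353 CPM in WT control and 229, 172, 167, 204 and 247 CPM in WT HFD mice. Acsl4 measured 32.6, 121, 41.9, 45.8 and 44.6 CPM and 42.9, 37.0, 18.7, 13.0 and 22.8 CPM in the same groups, and its highest control value came from mouse 832. Without the 5 libraries that stood apart, Acsl5 again fell and Acsl4 did not pass.

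Under Pio, HFD raised Slc22a5 and Cpt2 in WT mice (2 of 34, 5.88%, where 0.255% of all genes rose, 0.966% fell and 1.22% changed). Slc22a5 (ENSMUSG00000018900; chromosome 11, 53864542 to 53891660, reverse strand), which brings carnitine into the cell, measured 18.5, 12.2, 11.6, 14.8 and 10.7 CPM in WT Pio and 26.5, 28.5, 24.3, 26.9 and 27.3 CPM in WT HFD-Pio mice (log2 difference 0.98, SE 0.25, 1.97-fold, adjusted p = 0.0371; exact permutation p = 0.00794). Cpt2 (ENSMUSG00000028607; chromosome 4, 107903981 to 107923610, reverse strand), which returns acyl groups from carnitine to CoA inside the mitochondrion, measured 137, 132, 118, 126 and 107 CPM in WT Pio and 207, 198, 201, 191 and 208 CPM in WT HFD-Pio mice (log2 difference 0.70, SE 0.16, 1.62-fold, adjusted p = 0.0195; exact permutation p = 0.00794). Neither gene overlapped between the groups. The call of Slc22a5 was lost without any 1 of 9 of the 10 mice compared (all but WT Pio 841), and that of Cpt2 without WT Pio mouse 843 or 845 or WT HFD-Pio mouse 840. The median over the members was 0.35 against -0.01, and 30 of 34 were above 0 (49.1% of all genes), with 6 members higher and 2 lower without overlap (2.91% and 3.59% of all genes). Without WT Pio mouse 845, 0 members passed (0.371% of all genes), and without mouse 13 a further 4 rose (Acads 0.69, Acadm 0.56, Slc25a20 0.51 and Hadhb 0.50) and Acsl5 (-0.56) and Acsl3 (-1.03) fell, where 8.68% of all genes changed.

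In KO mice HFD changed 0 of 34 members without Pio (0.185% of all genes changed) and 0 under Pio (4.96%, mostly downward). By unadjusted p, 0 (4.6% of all genes) and 8 (24%) members were under 0.05. DESeq2 called 0 and 1 (0.41% and 7.82% of all genes), and limma 0 and 1 (4.19% and 2.39%). Without Pio the median was -0.13 against -0.01 over all genes, with 7 of 34 above 0 (47.3% of all genes), 0 without overlap between the groups (1.33% higher), and without KO HFD mouse 9 it was -0.03. Under Pio it was 0.25 against -0.02, and 0.19 without mouse 13. Acsl1, the member with the highest WT difference, measured 926, 808, 839.8, 1045 and 1040.5 CPM in KO control and 1102, 1078, 1074, 409 and 1363 CPM in KO HFD mice (log2 difference 0.11, SE 0.23), where mouse 9 was lowest.

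The HFD effect in KO minus WT mice passed in 0 members without Pio (0.0618% of all genes) and in 0 under Pio (0.0155%), with 16 and 6 members at an unadjusted p under 0.05 (9.43% and 19.3% of all genes). DESeq2 called 1 and 0 (0.703% and 0.834%), and limma 4 in each (1.43% and 7.53%). Without mouse 13, 3 members differed in mice without Pio (0.425% of all genes lower, 1.05% in either direction): Acat1 (-1.15, adjusted p = 0.0103, against -1.18 and 0.106 with it), Acadm (-1.04, adjusted p = 0.0103) and Slc25a20 (-0.78, adjusted p = 0.0434). All 3 are also among the 9 whose Pio effect differed, and both differences use the same WT and KO control mice. In WT mice Acadm measured 250.0, 258, 217, 281 and 267 CPM under HFD, and in KO mice 259, 252, 246, 132 and 251 CPM. Over the 34 members and with all mice kept, the median difference without Pio was -0.49 against -0.01, with 31 below 0. Without the libraries that stood apart it was -0.25. Under Pio, with all mice kept, the median was -0.03 against -0.03 over all genes, with 19 below 0. Without mouse 13 it was -0.16 against 0.01, with 23 below 0.

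Other genes of the pathway, from a list of 36 genes of which 33 apart from Pparg were tested, were read beside the members. In WT mice on control diet Pio raised 2 of 33 and lowered 0 (3.91% of all genes changed): Hsd17b10, a mitochondrial dehydrogenase of hydroxyacyl-CoA, from 106 ± 34.4 CPM to 265 ± 36.5 CPM (log2 difference 1.32, SE 0.26, adjusted p = 0.00268), and Acsm3, a synthetase for medium chains, from 38.1 ± 10.0 CPM to 76.8 ± 6.61 CPM (log2 difference 1.01, SE 0.30, adjusted p = 0.0452). Neither gene overlapped between the groups. In KO mice on control diet 3 rose and 3 fell (9.01% of all genes changed). Among those that fell were Hsd17b10 (-0.82, adjusted p = 0.0432) and the isomerase Ech1 (-0.73, adjusted p = 0.0342), and Acacb, which makes malonyl-CoA at the mitochondrion (1.57), the coactivator Ppargc1b (1.60) and the monocarboxylate carrier Slc16a1 (0.62) rose. Without mouse 13, 0 of these 6 passed, and Hsd17b10 was at -0.56 (adjusted p = 0.209). On HFD Pio changed 0 of 33 in WT mice (1.08% of all genes) and 0 in KO mice (0.0155%) by edgeR, with 8 and 0 at an unadjusted p under 0.05 (15.6% and 1.04% of all genes).

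HFD alone raised 3 of the 33 in WT mice and lowered 1 (1.31% of all genes changed). Among those that rose were Crat, the carnitine acetyltransferase (0.95, adjusted p = 0.023), and Hsdl2 (0.68, adjusted p = 0.006). Acacb fell from 499 ± 263 CPM to 68.7 ± 20.2 CPM (log2 difference -2.86, SE 0.45, adjusted p = 0.000445). Under Pio, HFD lowered both malonyl-CoA synthesising carboxylases in WT mice, Acacb (-1.93, adjusted p = 0.0179) and Acaca (-1.51, adjusted p = 0.0203), and raised 0 of 33, where 1.22% of all genes changed. In KO mice HFD changed 0 of 33 without Pio and 0 under Pio by edgeR (0.185% and 4.96% of all genes), with 1 and 13 at an unadjusted p under 0.05 (4.6% and 24% of all genes).

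The Pio effect on control diet in KO minus WT mice passed the adjusted test below 0 for 4 of the 33 (2.49% of all genes lower). Regardless of the test, 25 of the 33 lay below 0. Among the 4 were Hsd17b10 (-2.14, SE 0.37, adjusted p = 0.0011), Acsm3 (-1.50, SE 0.42, adjusted p = 0.026) and Mccc1, a subunit of the carboxylase for leucine breakdown (-0.90, SE 0.28, adjusted p = 0.0435). Without mouse 13 these again passed (Hsd17b10 -1.89, Acsm3 -1.22 and Mccc1 -0.66) among 7 of 33 that were lower. In that fit 3.13% of all genes were lower and 5.7% differed in either direction. Hsd17b10 measured 124, 51.5, 111, 101 and 143 CPM in WT control, 278, 297, 232, 297 and 220.1 CPM in WT Pio, 105, 97.3, 126, 106 and 91.3 CPM in KO control and 83.1, 52.5, 14.4, 70.6 and 75.8 CPM in KO Pio mice. Its groups did not overlap in either genotype, and the direction of the difference was opposite in the 2.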

How the data were processed

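Liver RNA of 40 male mice was measured by poly-A RNA sequencing in 8 groups of 5. The authors aligned reads to GRCm38 (Ensembl 76) with STAR 2.0.4b and deposited raw counts of uniquely aligned, unambiguous reads per gene from Subread featureCounts 1.4.5, in 1 table per genotype. The 2 tables were joined on 40594 shared genes, repeated lines with the same counts were used once, and 355 rRNA genes were removed. The 12942 genes that reached 1 CPM in 5 or more of the mice entered the quasi-likelihood test of edgeR 4.0.16 in R 4.3.3, using TMM scaling, robust dispersions and 8 group means over all mice, with Benjamini-Hochberg adjustment over all tested genes. CPM values are TMM-normalized, fold changes are from this fit, and single genes were also tested by a two-sided exact permutation test on log2(CPM + 0.5). Strand-specific counting was not given in the sources used here. The study used limma (3.58.1 here) with sample weights. It and DESeq2 1.42.0, RLE size factors, no filter, fits of a single genotype and leaving out each mouse were the alternatives. Of these tests, edgeR's quasi-likelihood test alone was also run on simulated counts, and only for Pio on control diet in WT mice.

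Every member is named, and values per mouse are given for members called in a comparison, and, where counts changed without mouse 13, for a few that were called only then. Values of WT HFD and HFD-Pio mice for Cpt1a, of KO HFD mice for Acat1 and Acsl1 and of both HFD groups for Acadm were added after they were seen. The members and gene lists were chosen with earlier results of these data known. Depth was 15789401 to 49860981 counts per library. The p-values of edgeR rest on the spread between mice within groups, estimated over all 8 groups together. Those of the exact permutation test use only the mice of the groups compared. The labels give no batches, and genotype and count table cannot be told apart. Values of 1 gene of the wider pathway list are not reported here, although it is counted in that list.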

Additional observations from a re-analysis of the deposited data

Results flagged for a closer look

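For 9 genes the effect of Pio on control diet differed between KO and WT mice by a test of the difference itself (the interaction term of edgeR's quasi-likelihood fit, adjusted over 12942 genes, of which 7.87% differed). The Pio effect in KO minus that in WT mice, on the log2 scale, was -1.01 for Cpt1a, -1.18 for Slc25a20, -1.25 for Acadm, -1.16 for Acad10, -1.15 for Acad12, -0.97 for Hadhb, -0.96 for Hadh, -0.87 for Etfdh and -1.18 for Acat1. The WT mice of these comparisons carry neither the loxP alleles nor Cre, so the deletion, the alleles and the origin of the mice cannot be told apart.

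Among the 48 sets of values of 5 mice examined (the called members in the groups compared), 3 held a mouse that stood apart by Dixon's test, which flags about 1 in 20 sets by chance. Acadm was at 42.6 CPM in KO Pio mouse 13, with a gap to the next mouse of 0.73 of the range of the group. Acad10 was at 20.9 CPM in KO control mouse 2 (0.783 of the range) and Acad12 at 7.77 CPM in KO control mouse 5 (0.775 of the range). The difference between genotypes passed without mouse 13 for Acadm and without mouse 2 for Acad10, and did not pass for Acad12 without mouse 5.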

How the results depend on the processing

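No called member changed direction under any alternative. The number of members called changed as follows, with the share of all genes called in brackets. For Pio on control diet in WT mice (4 members, 3.91%), DESeq2 called 7 (6.28%), limma with sample weights 11 (23.9%), the fit without a filter 2 (1.13%) and the fit of WT mice alone 7 (7.16%). For Pio on HFD in WT mice (1, 1.08%), limma called 11 (8.4%), the unfiltered fit 0 (0.251%) and the fit of WT mice alone 2 (1.07%). For Pio on control diet in KO mice (1, 9.01%), DESeq2 called 4 (11%), limma 4 (9.4%), RLE size factors 2 (10.3%), the unfiltered fit 0 (2.94%) and the fit of KO mice alone 0 (0%). For HFD in WT mice (3, 1.31%), the numbers were 9 with DESeq2 (2.91%), 10 with limma (2.53%), 2 unfiltered (0.363%) and 8 in WT mice alone (2.63%), and for HFD under Pio (2, 1.22%) they were 24 with limma (22.7%), 0 unfiltered (0.309%) and 3 with DESeq2 (2.94%), RLE size factors (1.46%) or WT mice alone (1.56%). For HFD under Pio in KO mice (0, 4.96%), DESeq2 called 1 (7.82%) and limma 1 (2.39%). The Pio effect in KO minus WT mice on control diet (9, 7.87%) had 10 calls with DESeq2 (10.8%), 13 with limma (15.4%), 9 with RLE size factors (8.04%) and 6 unfiltered (2.03%), and on HFD (0, 0.0927%) 4 with limma (2.74%). The HFD effect in KO minus WT mice had, without Pio (0, 0.0618%), 1 call with DESeq2 (0.703%) and 4 with limma (1.43%), and under Pio (0, 0.0155%) 4 with limma (7.53%), and the Pio effect between diets in WT mice (0, 0.0773%) had 3 with limma (10.6%). Pio on HFD and HFD alone in KO mice, and the Pio effect between diets in KO mice, stayed at 0 in all of these.

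Leaving out the 5 libraries that stand apart, an alternative chosen after seeing the data, gave 12 (14.8%), 12 (11.4%), 2 (2.39%) and 0 (0%) calls for Pio (WT on control diet and HFD, KO on control diet and HFD), 9 (4.6%), 11 (7.07%), 0 (0.44%) and 1 (0.672%) for HFD (WT without and under Pio, KO without and under Pio), 0 (2.67%) and 0 (0.00773%) for the Pio effect between diets (WT, KO), 12 (7.74%) and 2 (0.711%) for the Pio effect between genotypes (control diet, HFD), and 2 (0.518%) and 0 (0.0695%) for the HFD effect between genotypes (without and under Pio). With each mouse left out in turn, the ranges in the same order were 2 to 12, 0 to 12, 0 to 10 and 0 to 0 for Pio, 2 to 16, 0 to 8, 0 to 0 and 0 to 2 for HFD, 0 to 0 and 0 to 0, 7 to 10 and 0 to 0, and 0 to 3 and 0 to 1. The highest numbers for Pio and HFD in WT mice came without KO Pio mouse 13, and the next were 6 for Pio on control diet without KO HFD mouse 9 (4.57%), 7 for HFD without WT control mouse 831 (2.82%) and 6 for HFD under Pio without WT Pio mouse 841 (4.85%). No paired analysis was possible because the replicate numbers are mouse numbers and the groups share none. Another scaling moved the median of all genes by less than 0.1 on the log2 scale in every comparison. Acad12, Cpt1b and Hadhb were the lowest of the tested members per kb in WT control mice, and how far depth limits them was not tested.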
